A study of Homo sapiens with 12 samples.

Results

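The host transcripts MIR31HG, MIR100HG, MIR210HG, MIR99AHG, MIR155HG, MIR503HG and DLEU2, which carry miRNA genes, were followed in total RNA from oxaliplatin-resistant and parental colorectal carcinoma cells. They were taken by name as 7 of the 54261 rows of the total RNA count table, and 32 mature miRNAs encoded in or beside them were taken from the 2588 rows of the small RNA table. The cells were HCT116oxR, a line raised from HCT116 by stepwise exposure to oxaliplatin at 0.1, 0.5, 1.0, 2 and finally 5 µmol/L, the last step for 1 year, and its untreated parent, HCT116, an established human colorectal carcinoma line. Oxaliplatin is a platinum compound that crosslinks DNA. From separately grown and harvested cultures, 3 total RNA and 3 small RNA libraries were made per line. The resistant cells are 1 selected population, so replicates carry the variation of cultures, not of independent selections, and the labels do not say whether drug was present at harvest.

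A miRNA host transcript is a longer RNA, usually a long non-coding RNA, that carries one or more miRNA hairpins in its introns or exons. Drosha cuts the hairpin out of the primary transcript in the nucleus, Dicer trims it to a short duplex, and one strand is loaded into an Argonaute protein, where its seed, bases 2 to 8, directs pairing with target mRNAs. The spliced host RNA and the mature miRNA come from the same transcription but are processed and degraded separately, and a mature miRNA encoded at several loci reports on all of them. In colorectal cancer MIR100HG has been described in resistance to the antibody cetuximab, miR-31 as raised in tumours with BRAF mutations, and miR-210 as the hypoxia-induced miRNA, while DLEU2 and its miR-15a and miR-16-1 are best known from deletions in chronic lymphocytic leukaemia.

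The sequences below are those of the guide strands that the results turn on, from RefSeq on GRCh38.p14, written 5′ to 3′ with the seed in capitals. They show which miRNAs of different hosts carry the same seed. MIR100HG and MIR99AHG encode paralogous clusters on chromosomes 11 and 21, and DLEU2 and MIR503HG carry members of the miR-15 family on chromosomes 13 and X.
hsa-miR-100-5p: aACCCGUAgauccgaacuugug
hsa-miR-99a-5p: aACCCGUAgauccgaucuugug
hsa-miR-125b-5p: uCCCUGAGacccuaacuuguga
hsa-let-7a-5p: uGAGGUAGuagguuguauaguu
hsa-let-7c-5p: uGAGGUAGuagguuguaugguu
hsa-miR-15a-5p: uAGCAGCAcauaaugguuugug
hsa-miR-16-5p: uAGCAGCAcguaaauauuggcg
hsa-miR-424-5p: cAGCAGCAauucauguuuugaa
hsa-miR-503-5p: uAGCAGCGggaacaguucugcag
hsa-miR-31-5p: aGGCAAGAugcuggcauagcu
hsa-miR-210-3p: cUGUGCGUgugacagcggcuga

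The seed AGCAGCA was shared by miR-15a-5p, miR-16-5p and miR-424-5p, and the seed of miR-503-5p differed from it by A8G, counted from 1 at the 5′ end of the miRNA. miR-100-5p and miR-99a-5p shared ACCCGUA and differed over 22 bases by A16U, with the base of miR-100-5p given first. let-7a-5p and let-7c-5p shared GAGGUAG and differed by A19G, with the base of let-7a-5p given first.

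The total RNA libraries held 11950069 to 13558077 counts each, and the small RNA libraries held 16089595 to 18147051. As a check of the label, the epithelial marker genes EPCAM, KRT8, KRT18 and KRT19 were abundant in both lines, with 7049 EPCAM counts summed over the HCT116oxR libraries and 5667 over the parental ones. CDH1, a further epithelial marker, had 2759 counts in HCT116oxR and 2491 in parental cells. Of the intestinal genes, CDX2 had 719 counts in HCT116oxR and 482 in parental cells. KRT20 had only 64 in HCT116oxR and 80 in parental cells, and CDX1, VIL1 and LGR5 had at most 2 per line. PTPRC, a marker of leukocytes at large, and CD3E, a marker of T cells, had 0 counts in all libraries. The ubiquitous gene RNH1 was listed at 0 as well, so zeros and near-zero counts of markers alone do not show absence. The summed level of 6 leukocyte markers was 6.60 to 7.98 CPM (counts scaled to library size) in HCT116oxR and 13.1 to 15.8 CPM in parental cells, mostly from CD68 and ITGAM. The summed level of 4 endothelial markers was 3.01 to 3.98 CPM in HCT116oxR and 1.66 to 2.43 CPM in parental cells. That of 6 fibroblast markers was 46.6 to 51.7 CPM in HCT116oxR and 55.2 to 68.3 CPM in parental cells. Most of the fibroblast sum came from COL1A1, with 1701 counts in HCT116oxR and 2004 in parental cells, while COL3A1, PDGFRB, DCN and LUM had at most 29 per line. The part of these markers in the results was not tested. In bulk RNA, fewer cells with a transcript and less of it per cell cannot be told apart.

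Of the 7 hosts, 3 had enough counts for a test between the lines. Both MIR100HG and DLEU2 rose and MIR31HG fell in HCT116oxR (edgeR quasi-likelihood test, Benjamini-Hochberg adjusted over 17511 genes). Change was common in this comparison: 44.1% of all tested genes passed the same threshold, 22.3% upward and 21.8% downward, and the libraries of the lines did not overlap for 50.5% of them. Of the remaining 4 hosts, MIR503HG had few counts, MIR99AHG had almost none, and MIR210HG and MIR155HG were listed at 0 in every library. Counts are not scaled to transcript length here, so the hosts are compared between lines and not with each other.

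**Figure D1:**
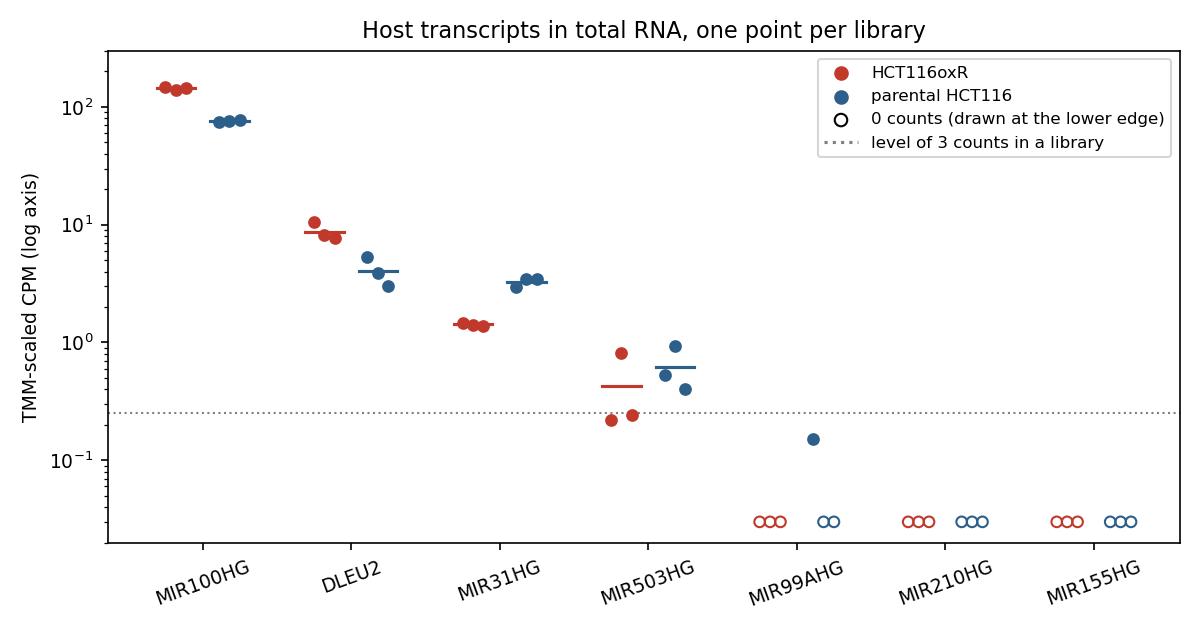
TMM-scaled CPM of the 7 host transcripts on a log axis, one point per total RNA library, with HCT116oxR left of parental HCT116, a bar at the mean of 3 libraries, a dotted line at the level of 3 counts in a library, and open circles at the lower edge for 0 counts. The MIR100HG and DLEU2 points of HCT116oxR lie above and the MIR31HG points below all parental points, and MIR503HG points overlap at 3 to 11 counts per library.

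MIR100HG (GRCh38 chr11:122028329-122422871, minus strand, lncRNA) had 2018, 1857 and 1795 counts in the HCT116oxR libraries and 993, 896 and 966 in the parental libraries. All HCT116oxR libraries were high and the lines did not overlap. Its level was 144.5 ± 5.35 CPM in HCT116oxR and 76.2 ± 1.77 CPM in parental cells (mean ± SD, n = 3 each), 1.90-fold higher, with a log2 fold change of 0.92 ± 0.05 (SE) and an adjusted p of 4.72e-34 in edgeR.

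MIR100HG spans the hairpins of miR-100, let-7a-2 and miR-125b-1, and the hairpin entry MIR10526, for which no mature miRNA was taken. Of the 6 mature miRNAs taken for it, 3 were called higher and 1 lower in small RNA. There 44.7% of 975 tested miRNAs were called, 23.5% higher and 21.2% lower. miR-100-5p, the main product of the locus and a repressor of MTOR and other growth genes, took 1144080, 1054047 and 989002 counts in HCT116oxR libraries and 749637, 709846 and 741612 in parental libraries. That was 58992 ± 2371 CPM in HCT116oxR and 46128 ± 504.3 CPM in parental cells, and all HCT116oxR libraries were above all parental ones. The rise was 1.28-fold (log2 fold change 0.35 ± 0.04, SE, edgeR adjusted p = 2.81e-05), against 1.90-fold for the host in the other kind of library.

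miR-125b-5p, which targets regulators of apoptosis and differentiation, is encoded both in MIR100HG and in MIR99AHG. It stood at 4944 ± 204.8 CPM in HCT116oxR and 4420 ± 66.3 CPM in parental cells and was called higher at 1.12-fold (0.16 ± 0.05, edgeR adjusted p = 0.0139). The opposite strand of the MIR100HG copy, miR-125b-1-3p, was called higher by the same factor (0.16 ± 0.05, adjusted p = 0.0235). Neither call was stable. With upper-quartile scaling the log2 fold changes were 0.07 for both and neither was called, with DESeq2 they were 0.15 for both and neither was called, and without parental replicate 1 they were 0.16 for both and neither was called. miR-125b-1-3p alone also lost its call without parental replicate 2 (0.17), without parental replicate 3 (0.18) and with the replicate number as a block (0.16).

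The 3p strands tell the hairpins of miR-125b apart, because they differ between the loci. miR-125b-1-3p had 7667, 7254 and 7290 counts in HCT116oxR and 5915, 5633 and 6008 in parental cells, while miR-125b-2-3p of the MIR99AHG copy had 1, 11 and 8 in HCT116oxR and 5, 10 and 10 in parental cells. The MIR100HG copy therefore made up 99.8% to 99.99% of the 3p counts of these hairpins in each library, with no separation between the lines. For let-7a, which slows proliferation and is encoded at 3 loci, the picture was the reverse. let-7a-2-3p of MIR100HG made up 6.94%, 4.89% and 5.29% of the 3p counts of the let-7a hairpins in HCT116oxR, and 4.83%, 4.60% and 4.49% in parental cells. These shares did not overlap, but the exact 2-sided permutation p of 0.10 is the smallest that 3 against 3 libraries allow, and it was 0.50 after Benjamini-Hochberg adjustment over 5 such ratios.

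The mature let-7a-5p had 9907 ± 270.5 CPM in HCT116oxR and 10707 ± 156.4 CPM in parental cells, a log2 fold change of -0.11 ± 0.04 (edgeR adjusted p = 0.0492). Its call was lost in every single-library omission but that of HCT116oxR replicate 3, with log2 fold changes of -0.07 without HCT116oxR replicate 1, -0.07 without HCT116oxR replicate 2, -0.10 without parental replicate 1, -0.09 without parental replicate 2 and -0.11 without parental replicate 3. It was lost as well under 6 of 7 other settings, upper-quartile scaling being the exception. let-7a-2-3p stood at 0.16 ± 0.12 and was not called (adjusted p = 0.306). The passenger strand miR-100-3p, with 93, 100 and 74 counts in HCT116oxR and 46, 62 and 55 in parental cells, was at 0.53 ± 0.21 and not called (adjusted p = 0.0617). It was called without HCT116oxR replicate 3 (0.65), without parental replicate 2 (0.67) and with library totals as the only scaling (0.59).

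**Figure D2:**
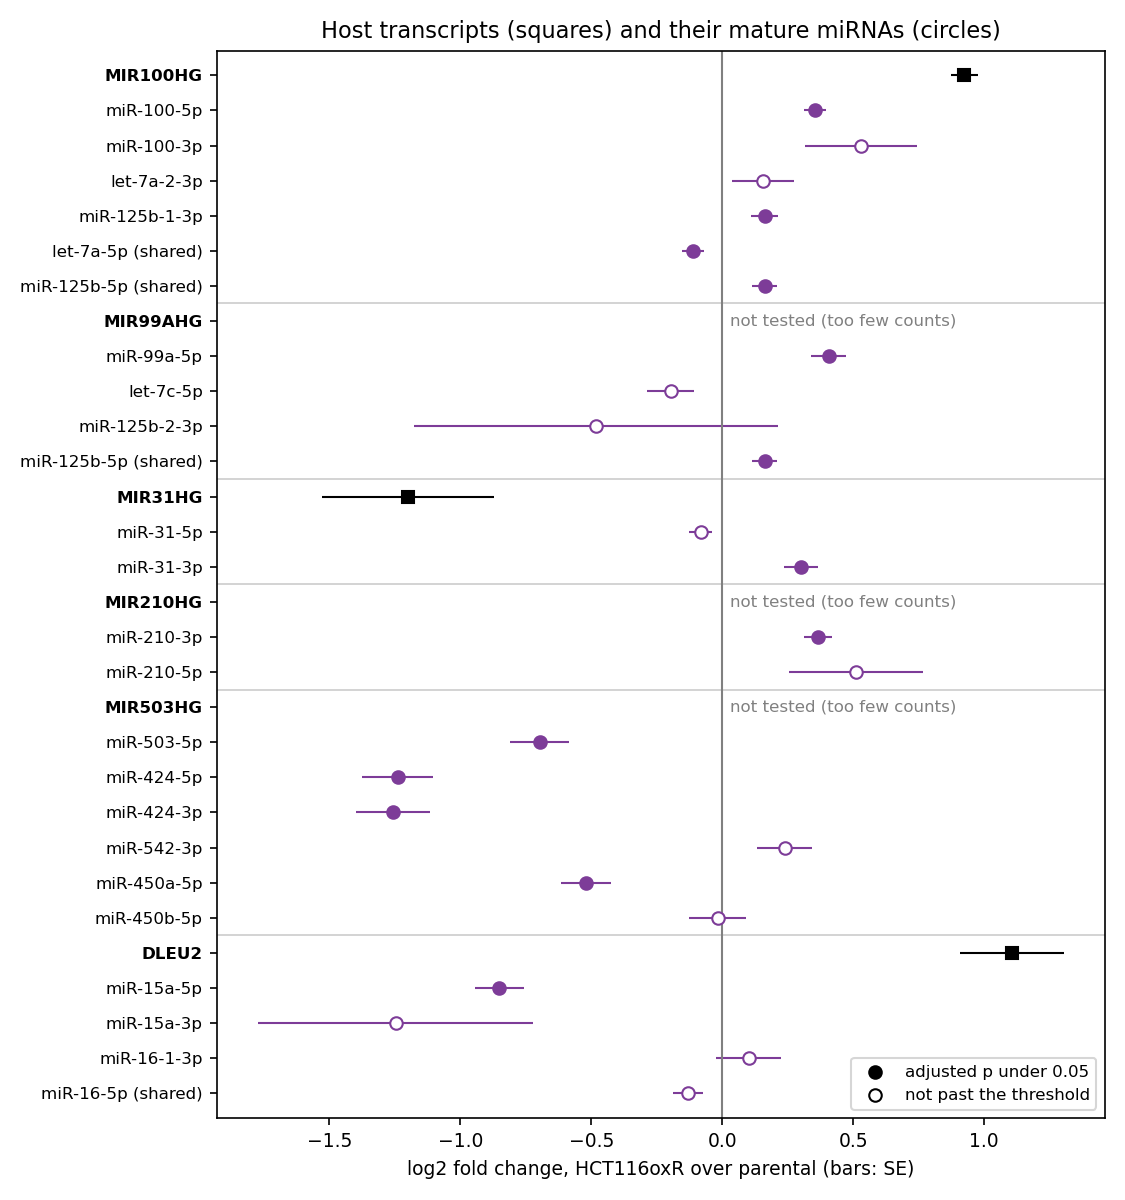
Log2 fold change of HCT116oxR over parental cells with its SE for the 3 tested hosts (squares, total RNA) and the tested mature miRNAs of 6 hosts (circles, small RNA), with the hosts MIR99AHG, MIR210HG and MIR503HG marked as not tested. Circles are filled where the adjusted p was under 0.05, and miRNAs made from several loci are marked as shared. Beneath MIR100HG at 0.92 all circles but that of let-7a-5p lie right of zero, and circles lie left of zero for miR-15a-5p at -0.85 beneath DLEU2 at 1.11, and near zero for miR-31-5p at -0.08 beneath MIR31HG at -1.20.

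MIR99AHG (chr21:16070488-16631727, plus strand, lncRNA), the paralogous host of miR-99a, let-7c and miR-125b-2, had 0 counts in each HCT116oxR library and 2, 0 and 0 counts in the parental libraries, too few for a comparison. The limit that a count of 0 allows, 3 counts in a library, corresponded to 0.221 to 0.252 CPM, and it covers counting error only. miR-99a-5p, which shares its seed and targets with miR-100-5p, nevertheless had 2888, 2850 and 2683 counts in HCT116oxR libraries and 1996, 1792 and 1828 in parental libraries. It was called higher, at 156 ± 4.86 CPM in HCT116oxR and 118 ± 5.37 CPM in parental cells (log2 fold change 0.41 ± 0.07, edgeR adjusted p = 3.27e-04).

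The counts of miR-99a-5p were a near-constant fraction of those of miR-100-5p, from which it differs by A16U. They came to 0.252%, 0.270% and 0.271% of the miR-100-5p counts in HCT116oxR and 0.266%, 0.252% and 0.246% in parental cells. The ranges overlapped (exact permutation p = 0.30, 2-sided, adjusted p = 0.50). How many mismatches the small RNA alignment allowed is not given in the sources used here, and whether reads of miR-100-5p were counted as miR-99a-5p was not tested. let-7c-5p likewise came to 1.48% to 1.83% of the let-7a-5p counts in HCT116oxR and 1.53% to 1.85% in parental cells.

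The other strands of the MIR99AHG hairpins were close to 0. miR-99a-3p had 7, 3 and 2 counts in HCT116oxR and 1, 1 and 5 in parental cells, and let-7c-3p had at most 2 in any library. let-7c-5p itself, at 162 ± 14.5 CPM in HCT116oxR and 186 ± 19.8 CPM in parental cells, was not called (-0.20 ± 0.09, edgeR adjusted p = 0.0915). It was called lower without HCT116oxR replicate 1 (-0.25), without parental replicate 2 (-0.26) and with upper-quartile scaling (-0.29). miR-125b-2-3p stood at -0.48 ± 0.70 and was not called either (adjusted p = 0.613).

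DLEU2 (chr13:49982549-50125541, minus strand, lncRNA) had 142, 109 and 94 counts in the HCT116oxR libraries and 70, 46 and 37 in the parental libraries. Its levels of 8.75 ± 1.51 CPM in HCT116oxR and 4.05 ± 1.15 CPM in parental cells did not overlap. The rise was 2.15-fold, with a log2 fold change of 1.11 ± 0.20 (SE, n = 3 each) and an edgeR adjusted p of 1.14e-06. DLEU2 overlaps the protein-coding genes TRIM13 and KCNRG and the lncRNA DLEU1 in the annotation. None of these was called, with log2 fold changes of 0.06 ± 0.08 for TRIM13, -0.08 ± 0.17 for KCNRG and 0.29 ± 0.16 for DLEU1 (adjusted p = 0.546, 0.728 and 0.134 in edgeR). Without a stated use of strand, reads in the overlaps cannot be assigned to 1 gene.

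The strands of miR-15a and miR-16 taken for DLEU2 were not called higher with it. A further hairpin entry inside DLEU2, MIR3613, had 24 counts in HCT116oxR and 10 in parental cells in total RNA. Its mature miRNAs were not taken. miR-15a-5p, a repressor of BCL2 and of cyclins, had 438, 457 and 467 counts in HCT116oxR libraries and 748, 716 and 711 in parental libraries. All HCT116oxR libraries were low and the lines did not overlap. At 25.3 ± 1.74 CPM in HCT116oxR and 45.6 ± 1.06 CPM in parental cells it was called lower (log2 fold change -0.85 ± 0.09, edgeR adjusted p = 1.35e-05), and it kept that call in all 13 alternative settings run. Its opposite strand miR-15a-3p, at 9, 4 and 4 counts in HCT116oxR and 12, 10 and 14 in parental cells, was at -1.25 ± 0.53 and not called (adjusted p = 0.0723).

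The hairpin next to miR-15a gave another value. miR-16-1-3p, which comes from DLEU2 alone, had 743, 541 and 522 counts in HCT116oxR and 484, 528 and 470 in parental cells, overlapping ranges with a log2 fold change of 0.10 ± 0.12 (adjusted p = 0.543 in edgeR). The mature miR-16-5p, made from DLEU2 and from a second locus on chromosome 3, stood at 416 ± 24.1 CPM in HCT116oxR and 456 ± 4.09 CPM in parental cells (-0.13 ± 0.06, adjusted p = 0.0823, not called). It was called lower without HCT116oxR replicate 3 (-0.16) and with upper-quartile scaling (-0.23). Of the 3p counts of both miR-16 hairpins, miR-16-1-3p made up 12.3%, 9.68% and 8.70% in HCT116oxR and 8.63%, 9.81% and 8.06% in parental cells.

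The total RNA table also lists the hairpin gene MIR15A, at 7, 8 and 12 counts in HCT116oxR and 0, 2 and 0 in parental cells. The ratio of CPM was 12.9 with an exact 95% binomial counting interval of 3.24 to 112. That interval pools the libraries of each line and leaves out variation between cultures. MIR15A lies within DLEU2, and how reads were shared between the entries is not given in the sources used here. In total RNA the host and the hairpin entry MIR15A were thus both high in HCT116oxR, while in small RNA the mature miR-15a-5p was low. The neighbouring entry MIR16-1 was listed at 0 in all libraries. Inside MIR100HG, MIRLET7A2 had 57 counts in HCT116oxR and 55 in parental cells (log2 fold change -0.01 ± 0.42, not called). MIR100 had 7 in HCT116oxR and 10 in parental cells, and MIR125B1 had 17 and 10.

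MIR31HG (chr9:21454268-21559798, minus strand, lncRNA), whose RNA has been described as a co-activator of hypoxia-inducible factor, had 20, 19 and 17 counts in HCT116oxR libraries and 39, 41 and 43 in parental libraries. The lines did not overlap. Its level was 1.43 ± 0.046 CPM in HCT116oxR and 3.29 ± 0.301 CPM in parental cells, and the log2 fold change was -1.20 ± 0.33 (SE, edgeR adjusted p = 0.00136). IFNE, an epithelial type I interferon gene inside MIR31HG on the same strand, was also called lower, with 51 counts in HCT116oxR and 100 in parental cells (-1.03 ± 0.36, adjusted p = 0.0144), and reads of the overlap cannot be told apart.

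miR-31 was abundant in both lines, at 74951, 67692 and 66833 counts of miR-31-5p in HCT116oxR and 66163, 63209 and 66494 in parental cells. miR-31-5p averaged 3878 ± 96.8 CPM in HCT116oxR and 4105 ± 47.7 CPM in parental cells, and the log2 fold change of -0.08 ± 0.04 was not called (adjusted p = 0.148 in edgeR). With upper-quartile scaling it was called lower (-0.18). The opposite strand of the same hairpin, miR-31-3p, was called higher, at 160 ± 3.21 CPM in HCT116oxR and 130 ± 6.09 CPM in parental cells (0.30 ± 0.07, edgeR adjusted p = 0.00240).

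Within each library, which needs no scaling between libraries, miR-31-5p made up 96.1%, 96.0% and 96.0% of the counts of its hairpin in HCT116oxR and 96.8%, 97.0% and 97.1% in parental cells. The ranges did not overlap, and the difference was -0.894 percentage points (exact 2-sided permutation p = 0.10, the smallest possible here, and 0.90 adjusted over 9 hairpins). For the other 8 hairpins compared in this way the shares of the 5p strand overlapped between the lines.

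MIR503HG (chrX:134543377-134546630, minus strand, lncRNA) had 3, 11 and 3 counts in HCT116oxR libraries and 7, 11 and 5 in parental libraries, below the filter on low counts. The ranges overlapped, and the exact 2-sided permutation p over the 6 libraries was 0.50. A difference was not detectable at this depth. Fitted with no filter it stood at a log2 fold change of -0.51 ± 0.72 (edgeR adjusted p = 0.650).

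The small RNA of the same locus was better covered. miR-503-5p, a G1 cell cycle repressor encoded within MIR503HG, had 294, 252 and 279 counts in HCT116oxR and 403, 412 and 366 in parental cells. The lines did not overlap, and it was called lower at 15.3 ± 0.861 CPM in HCT116oxR and 24.8 ± 1.81 CPM in parental cells (-0.70 ± 0.11, edgeR adjusted p = 2.89e-04). miR-424-5p had 115, 107 and 120 counts in HCT116oxR and 225, 239 and 250 in parental cells, and miR-424-3p had 192, 153 and 219 in HCT116oxR and 413, 361 and 419 in parental cells. Both strands of miR-424 were called lower by nearly the same factor, with log2 fold changes of -1.24 ± 0.14 (adjusted p = 1.26e-05) and -1.26 ± 0.14 (adjusted p = 1.61e-05). The 5p strand held 35.4% to 41.2% of the counts of the miR-424 hairpin in HCT116oxR and 35.3% to 39.8% in parental cells.

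The mature strands of miR-424 are not inside the annotated transcript. They end 50 bases (5p) and 14 bases (3p) upstream of the RefSeq start of MIR503HG at position 134546630, while the hairpin entry MIR424 (chrX:134546614-134546711) overlaps the first bases of the host. The stretch chrX:134546584-134546761 (GRCh38.p14, minus strand), printed because it holds both the hairpin and the start of the host, carries miR-424-5p and then miR-424-3p in capitals.
MIR503HG window: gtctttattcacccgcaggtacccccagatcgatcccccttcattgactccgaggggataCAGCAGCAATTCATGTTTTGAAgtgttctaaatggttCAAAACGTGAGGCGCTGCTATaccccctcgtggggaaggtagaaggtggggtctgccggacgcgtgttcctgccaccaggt

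Further miRNAs of the cluster lie 1955 to 3162 bases beyond the other end of MIR503HG, and they did not move as one. miR-450a-5p was called lower, at 832, 632 and 666 counts in HCT116oxR and 900, 869 and 924 in parental cells (-0.52 ± 0.10, edgeR adjusted p = 8.37e-04). miR-450b-5p stood at 17.6 ± 0.573 CPM in HCT116oxR and 17.8 ± 0.625 CPM in parental cells (-0.02 ± 0.11, adjusted p = 0.917). miR-542-3p was at 32.3 ± 3.42 CPM in HCT116oxR and 27.4 ± 1.16 CPM in parental cells, not called (0.24 ± 0.11, adjusted p = 0.0870) but called higher without HCT116oxR replicate 3 (0.33). The remaining strands of the cluster, miR-503-3p, miR-542-5p, miR-450a-1-3p, miR-450a-2-3p and miR-450b-3p, had between 0 and 16 counts per library and were not tested.

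MIR210HG (chr11:565657-568457, minus strand, lncRNA) was listed at 0 in all 6 libraries, as was the hairpin gene MIR210. These zeros cannot be read as absence of the transcript. Between ANO9 and TMEM80 on the same chromosome, the 12 protein-coding genes of the table around MIR210HG had at most 36 counts summed over all libraries, and 8 of them were listed at 0. Among those at 0 were RNH1, the gene of the ubiquitous ribonuclease inhibitor, PTDSS2, an enzyme of phosphatidylserine synthesis, and PHRF1. ANO9 and TMEM80 themselves had 5072 and 758 counts. Over all genes 17.3% of protein-coding genes were listed at 0 in every library.

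miR-210-3p, encoded inside MIR210HG, was measured well in the small RNA. It had 16293, 14117 and 14654 counts in HCT116oxR and 10374, 10389 and 10135 in parental cells, with all HCT116oxR libraries high. At 834 ± 33.2 CPM in HCT116oxR and 648 ± 17.3 CPM in parental cells it was called higher (log2 fold change 0.36 ± 0.05, edgeR adjusted p = 1.31e-04). miR-210-5p, the passenger strand, was not called (0.51 ± 0.26, adjusted p = 0.125), and it held 0.373% to 0.529% of the counts of the hairpin in HCT116oxR and 0.307% to 0.530% in parental cells.

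MIR155HG (chr21:25562145-25575168, plus strand, lncRNA), also known as BIC and induced in activated lymphocytes, was listed at 0 in all 6 libraries, with the limit of 0.221 to 0.252 CPM given above. Its neighbour MRPL39, a mitochondrial ribosomal protein gene, had 1257 counts in HCT116oxR and 1197 in parental cells. Of the 4 protein-coding genes of the table within 250 kb of MIR155HG, 1 was listed at 0 in all libraries. miR-155-5p was at the edge of detection, with 5, 6 and 7 counts in HCT116oxR and 16, 7 and 7 in parental cells, and was not tested. miR-155-3p had 1 count in 1 parental library and 0 in all others.

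**Figure D3:**
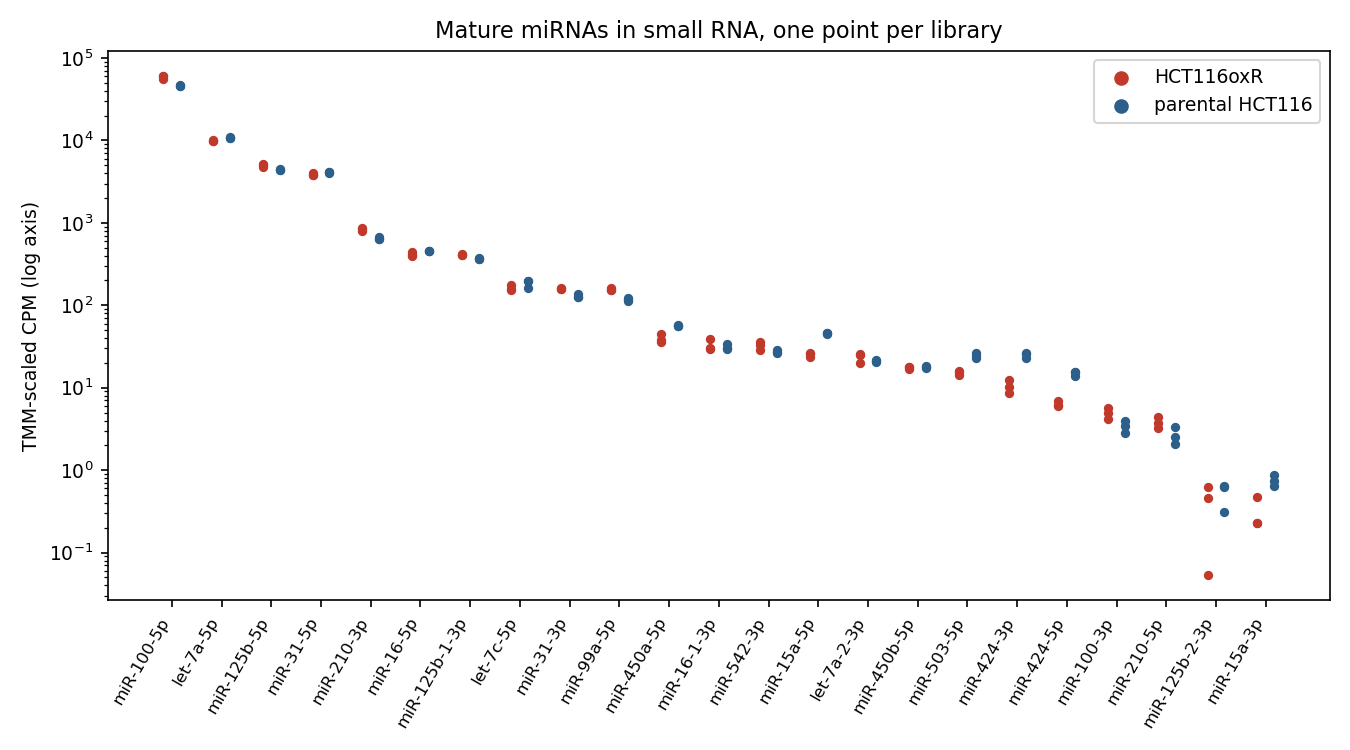
TMM-scaled CPM on a log axis of the 23 tested mature miRNAs of the hosts, one point per small RNA library, with HCT116oxR left of parental HCT116 and miRNAs ordered by their HCT116oxR mean. Levels run from 58992 CPM for miR-100-5p in HCT116oxR to 0.311 CPM for miR-15a-3p in HCT116oxR, and the miR-424 strands show a wide separation between the lines.

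Across all hosts, 23 of the 32 mature miRNAs passed the filter on low counts, of which 6 were called higher, 6 lower and 11 not. With upper-quartile scaling 4 were called higher and 9 lower, and over all miRNAs that scaling gave 191 higher and 258 lower, against 229 higher and 207 lower with TMM. Their median log2 fold change was -0.02, against 0.01 over all 975 miRNAs tested. The 12 of 23 called are near the 44.7% called among all miRNAs. The libraries of the lines did not overlap for 17 of the 23, where 55.2% of all tested miRNAs did not overlap. In level, miR-100-5p stood first in both lines, followed by let-7a-5p, miR-125b-5p and miR-31-5p. miR-125b-5p and miR-31-5p were at 4944 ± 204.8 and 3878 ± 96.8 CPM in HCT116oxR and at 4420 ± 66.3 and 4105 ± 47.7 CPM in parental cells, so that each kept its place in each line.

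The genes flanking each host place it in its region. They are the nearest tested ones and need not be adjacent. By lower coordinate, distances ran from 14.5 kb (TRIM13 from DLEU2) to 8049 kb (CXADR from MIR155HG). SORL1 lay 576 kb and UBASH3B 627 kb from MIR100HG. Around MIR100HG, 4 of the 6 nearest tested protein-coding genes were called higher and none lower, where 22.3% of all tested genes were called higher and 21.8% lower. They were UBASH3B (0.61 ± 0.05), a phosphatase of receptor signalling, SORL1 (0.66 ± 0.15), a sorting receptor, SC5D (0.30 ± 0.06), a sterol desaturase, and BLID (0.69 ± 0.10), which lies inside MIR100HG and may share its reads. TECTA (-0.25 ± 0.20) and C11orf63 (-0.20 ± 0.24), the outermost of the 6, were not called. Whether the change of MIR100HG is one of its region was not tested.

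Around DLEU2, EBPL was called higher (0.30 ± 0.11), and KPNA3 (0.07 ± 0.05), SPRYD7 (-0.00 ± 0.10), TRIM13, KCNRG and RNASEH2B (0.07 ± 0.08) were not called. Around MIR31HG, MTAP was called higher (0.47 ± 0.12) and IFNE lower, while KLHL9 (0.11 ± 0.06), CDKN2A (-0.14 ± 0.09), FOCAD (0.14 ± 0.21) and MLLT3 (0.22 ± 0.13) were not called. Near MIR503HG the tested genes FAM122B (-0.19 ± 0.04) and MOSPD1 (-0.52 ± 0.06) were called lower and GPC4 (0.25 ± 0.07) higher, and PHF6 (-0.06 ± 0.05), HPRT1 (0.05 ± 0.06) and FAM122C (-0.18 ± 0.12) were not called.

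The flanking genes of MIR99AHG included NRIP1 (-1.16 ± 0.05, lower), C21orf91 (0.74 ± 0.08, higher) and CXADR (1.36 ± 0.53, higher), while HSPA13 (-0.09 ± 0.05), USP25 (-0.12 ± 0.45) and BTG3 (0.11 ± 0.06) were not called. MIR155HG shares CXADR, BTG3 and C21orf91 with it across a long gene-poor stretch. On its other side MRPL39 (0.00 ± 0.09), ATP5J (-0.00 ± 0.08) and GABPA (-0.07 ± 0.09) were not called. Beyond the stretch of low counts around MIR210HG, SIGIRR (1.29 ± 0.11), ANO9 (0.92 ± 0.07), PKP3 (0.40 ± 0.05) and EPS8L2 (0.20 ± 0.05) were called higher and TMEM80 (-1.02 ± 0.16) lower, and TALDO1 (0.07 ± 0.05) was not called.

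**Figure D4:**
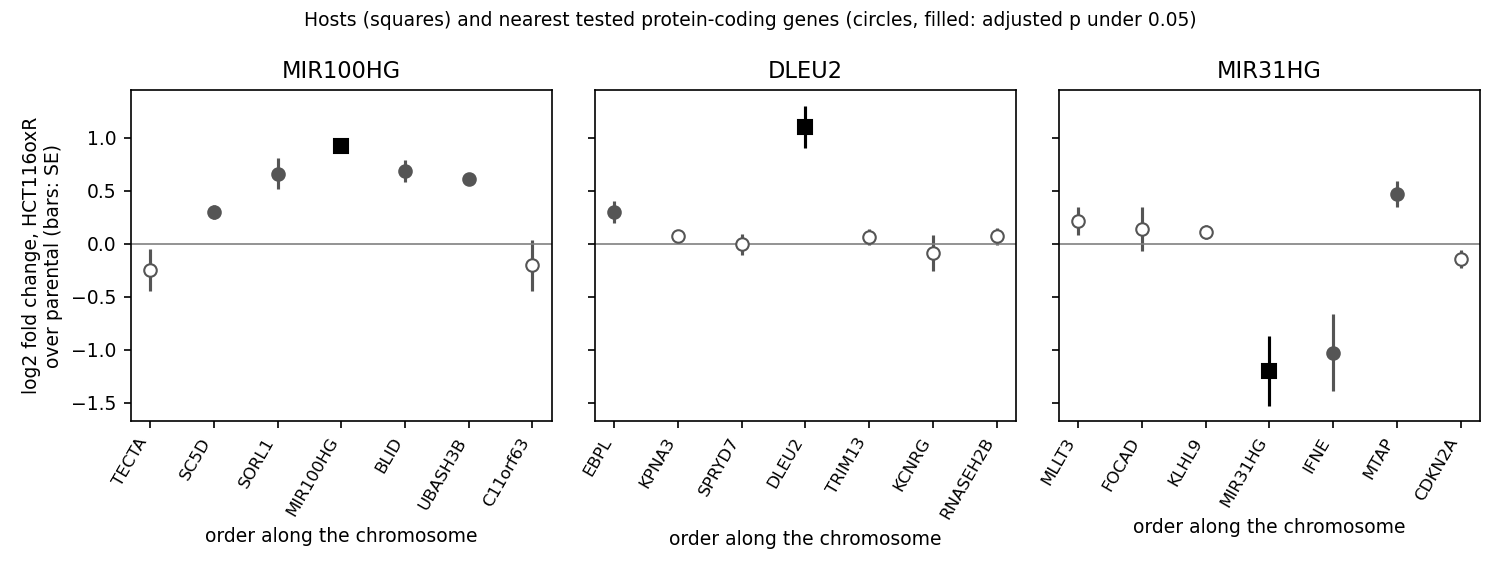
Log2 fold change of HCT116oxR over parental cells with its SE for MIR100HG, DLEU2 and MIR31HG (squares) and the 3 nearest tested protein-coding genes on each side in chromosome order (circles, filled where the adjusted p was under 0.05). The highest circle in the MIR100HG panel, at 0.69, is BLID, which lies inside MIR100HG and may share its reads. Circles in the panel of DLEU2 at 1.11 stay between -0.08 for KCNRG, which overlaps DLEU2, and 0.30 for EBPL.

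Among 44 other transcripts named as miRNA hosts, 25 were listed at 0 in every library and 8 could be tested, of which 2 were called higher and 2 lower, with a median log2 fold change of 0.13 against -0.00 over all genes. MIR22HG, the host of miR-22, had 63, 61 and 40 counts in HCT116oxR and 158, 126 and 117 in parental cells (-1.35 ± 0.19, edgeR adjusted p = 3.78e-10) and was the 1 of these with a change of at least 2-fold. Of 19 tested genes of miRNA processing and Argonaute proteins, 8 were called higher and 6 lower, with a median of 0.02. The counts of both lists are to be read against the 22.3% of all tested genes called higher and the 21.8% called lower. PRKRA, a partner of Dicer, fell by 0.74 ± 0.05 (log2), and AGO2 (0.63 ± 0.03), AGO4 (0.58 ± 0.08) and TNRC6C (0.54 ± 0.13), parts of the silencing complex, rose.

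Genes of the hypoxia response listed with miR-210, its regulators among them, were called higher in 9 of 15 tested cases and lower in 2. Their median log2 fold change was 0.24, and 22.3% of all tested genes were called higher and 21.8% lower. EGLN3 (1.24 ± 0.19), the glucose transporter gene SLC2A1 (1.21 ± 0.04), PDK1 (0.87 ± 0.08) and BNIP3 (0.63 ± 0.10) rose. Those called lower were the regulators HIF1A (-0.15 ± 0.04) and VHL (-0.51 ± 0.05). Of 12 subunits of NF-kB and AP-1, factors that drive MIR155HG in lymphocytes, 8 were called lower and 2 higher, with a median of -0.63. RELB (-2.34 ± 0.09), NFKB2 (-1.13 ± 0.04) and JUND (-1.06 ± 0.06) fell and FOS (1.43 ± 0.07) rose.

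Counts for the described targets of the hosted miRNAs are to be read against the 44.1% of all tested genes that were called, 22.3% higher and 21.8% lower, with a median of -0.00. For miR-31, 5 of 11 were called lower and 0 higher (median -0.10), which in all is near the share of all genes. The Wnt antagonist gene DKK1 (-1.15 ± 0.04), ITGA5 (-0.38 ± 0.05), LATS2 (-0.27 ± 0.08) and RDX (-0.20 ± 0.04) were among those called lower. For miR-210, 4 of 11 were called lower and 1 higher (median -0.11), with TFRC at -0.58 ± 0.03, GPD1L at -0.40 ± 0.06, CASP8AP2 at -0.38 ± 0.05 and EFNA3 at 0.34 ± 0.12.

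For miR-100 and miR-99a, 3 of 9 targets were called higher and 1 lower (median 0.29), with IGF1R at 0.86 ± 0.13, FGFR3 at 0.85 ± 0.08, PLK1 at 0.50 ± 0.04 and MTOR at -0.15 ± 0.05. Of 4 tested Wnt antagonist genes targeted by miR-100 and miR-125b, RNF43 rose by 1.49 ± 0.04 and DKK1 fell, and the median was -0.29.

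The seed AGCAGCA, carried by the lowered miR-15a-5p and miR-424-5p and by miR-16-5p, has many described targets, to which those of miR-503 were added. Of 15 tested, 5 were called higher and 5 lower (median 0.08). WNT3A (1.79 ± 0.37) and CHEK1 (0.64 ± 0.06) rose, and BCL2 (-0.79 ± 0.14) and FGFR1 (-0.51 ± 0.04) fell. Of 11 tested targets of miR-155, 3 were called higher and 4 lower (median -0.18), with INPP5D at 1.54 ± 0.23, TP53INP1 at 0.94 ± 0.07, BACH1 at -0.87 ± 0.05 and JARID2 at -0.46 ± 0.13.

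By the profile over the 6 total RNA libraries, the genes most like MIR100HG were ACAA2 and GSDMD, with a Pearson correlation of log2 CPM of 0.9998 and 0.9996. For MIR31HG they were ZBED6 (0.9996) and PSMB6 (0.9993), and for DLEU2 they were NUDT21 (0.9994) and RPS23 (0.998). The 6 points fall into 2 lines, so such values mostly restate the difference between the lines. Of 17013 genes, 1566, 1365 and 313 passed 0.95 with MIR100HG, MIR31HG and DLEU2. A correlation does not compare the size of a change. Log2 fold changes were 1.79 for ACAA2 and 0.93 for GSDMD, beside 0.92 for MIR100HG. ZBED6 was at -0.57 and PSMB6 at -0.42, beside -1.20 for MIR31HG. NUDT21 was at 0.10 and RPS23 at 0.19, beside 1.11 for DLEU2.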

How the data were processed

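Total RNA (rows are genes) and small RNA (rows are mature miRNAs) were deposited by the authors as raw counts for 12 libraries. The submitters' processing notes name GRCh38, HISAT2 (total RNA) and BWA (small RNA). The sources used here do not give versions, the counting tool, the annotation release, the use of strand or the handling of multiply matching reads. Every value column belonged to a sample.

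Members, lists, tests and alternatives were chosen with earlier results of these data known. The library kinds were fitted separately in R 4.3.3 with edgeR 4.0.16: filterByExpr (10 counts in a library of median size, 15 in all), TMM factors, robust quasi-likelihood F test, 2-sided, Benjamini-Hochberg threshold 0.05 over 17511 genes and 975 miRNAs. The fit was tested on simulated data. The SE was derived from the log2 fold change and F (absolute change divided by root F). CPM is scaled with the TMM factors. Hosts under the filter have counts and, where a line had counts in all its libraries, an exact permutation test. Replicates differed beyond sampling noise. Gene positions, strands and sequences came from RefSeq (GRCh38.p14). All members, the mature miRNAs taken for them and other MIR..HG genes changed at least 2-fold were named. So were the 3 nearest tested protein-coding genes on each side, up to 4 genes per further list and the 2 most correlated genes per host. The genes called lower in the hypoxia list were named as well. RefSeq gave no sequence for some of the miRNAs. Alternatives used DESeq2 1.42.0, other scalings, other filters, a replicate block and single-library omissions.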

Additional observations from a re-analysis of the deposited data

How the results depend on the processing

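The calls of MIR100HG, DLEU2 and MIR31HG held in all 12 alternatives run for total RNA. With 1 library left out at a time, their log2 fold changes ranged from 0.90 to 0.95, 0.93 to 1.35 and -1.28 to -1.16. Same-numbered libraries of the 2 lines did not deviate together (correlations of deviations from the line means -0.0275 to -0.00705 in total RNA and -0.144 to 0.0789 in small RNA), so the numbers were not taken to pair them. With the replicate block, 2 hosts were called higher and 1 lower, as without it, and miR-125b-1-3p and let-7a-5p lost their calls. Of 297 values of 23 miRNAs under alternatives, 261 kept direction and side of the threshold, 20 lost the call, 10 gained it and 6 changed sign. The sign changes were in miRNAs not called: miR-450b-5p was at 0.034 with library totals only and at 0.015 with no filter, and between -0.034 and 0.042 with single libraries left out. miR-125b-2-3p ranged from -1.01 to 0.064 and miR-16-1-3p from -0.015 to 0.19 with single libraries left out, in each case changing sign without HCT116oxR replicate 1. Upper-quartile scaling shifted the median of all miRNAs by -0.09. Of the hosts' miRNAs, 7 were called higher and 5 lower with library totals, and 4 higher and 5 lower with DESeq2. With no filter 1 endothelial marker was called higher, against 0 with it, and 1 call each was lost among higher miRNA processing genes (7 against 8), lower NF-kB and AP-1 subunits (7 against 8) and lower miR-210 targets (3 against 4). The cause of these changes was not tested. MIR503HG, MIR99AHG, MIR155HG and miR-155 had at most 16 counts in a library, which limits what can be said of them. Whether depth, counting or absence of the RNA lies behind these low counts was not tested.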
